A study of Mus musculus with 8 samples.

Results

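The core circadian clock and output genes described here are 10 genes that build or report the hepatocyte clock: the activators Arntl and Npas2, the repressors Per1, Per2, Per3 and Cry1, the nuclear receptors Nr1d1 and Nr1d2, and the outputs Dbp and Ciart. Every bead array probe annotated to one of these symbols was taken if its detection p-value, which sets a probe against the negative control beads of its array, was 0.05 or lower in at least 1 of 8 arrays. This gave 16 probes of 9 genes, out of 19618 detected probes and 9640 named genes. Cry1 had no probe under that name in the annotation used and was not analysed here. The 2798 detected probes outside the authors' normalized table of 16820 probes carried no symbol, so a gene measured only by them could not be named.

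RNA came from hepatocytes of Gata4 fl/fl mice of a CD1 x 129S1/SvImJ strain background at 2 to 3 months of age. The mice received either AAV8-Tbg-Cre (AAV-Cre, 4 samples), which excises the floxed segment of the gene for the transcription factor GATA4, or AAV8-Tbg-GFP (AAV-GFP, 4 samples), and RNA was taken 2 weeks after this intravenous injection. Both groups carried the floxed alleles and received virus. Both viruses used the hepatocyte promoter Tbg, and the cells were enriched by collagenase perfusion and a Percoll gradient, so other liver cells could remain in small numbers. The sources used here give neither the time of day at which livers were perfused nor the feeding state of the mice. The labels do not say whether the 8 samples are 8 mice, and the spread behind every p-value is therefore that among the samples, which may be technical.

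In the mouse clock, ARNTL (also called BMAL1) pairs with CLOCK or its relative NPAS2 and activates genes through E-boxes. The products of Per and Cry genes return to the nucleus and repress this pair, and the E-box target CIART (also called CHRONO) represses it as well. Nr1d1 and Nr1d2 encode REV-ERB alpha and REV-ERB beta, which repress Arntl and Npas2 through ROR elements, while DBP, itself a product of an E-box gene, activates genes through D-boxes. In mouse liver these genes are known for strong daily rhythms, with Arntl and Npas2 high when Dbp, Nr1d1 and Ciart are low.

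Promoter stretches of Ciart, Per1, Per3 and Arntl are shown because, among the measured clock genes, theirs were the windows that held one of these elements. They are RefSeq sequences of GRCm38.p6, read 5′ to 3′ along the gene, with the element in capitals: E-boxes (CACGTG) of Ciart at chr3:95882247-95882364 on the minus strand and of Per1 at chr11:69098763-69098808 on the plus strand, D-boxes (TTATGTAA) of Per3 at chr4:151044796-151044890 on the minus strand, and a ROR element (TAGGTCA) of Arntl at chr7:113207531-113207557 on the plus strand.
Ciart: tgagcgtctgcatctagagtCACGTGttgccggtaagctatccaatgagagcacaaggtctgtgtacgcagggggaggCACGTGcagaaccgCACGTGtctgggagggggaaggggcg
Per1: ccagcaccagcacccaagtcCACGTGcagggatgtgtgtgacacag
Per3: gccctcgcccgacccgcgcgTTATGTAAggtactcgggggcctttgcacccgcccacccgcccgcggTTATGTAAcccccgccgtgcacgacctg
Arntl: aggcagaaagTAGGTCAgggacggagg
The Ciart E-boxes began 116, 58 and 44 bases before the transcription start, the Per1 E-box 166 bases before it, and the Per3 D-boxes 205 and 158 bases before it, whereas the Arntl element lay 30 bases past the second of the annotated start sites.

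The search covered 250 bases before and 50 bases after each annotated start on both strands, and 9 of the 10 genes had an entry, Per2 being the exception. Cry1 also held 1 E-box, 60 bases before its start. Across all 32851 promoters of the same length, 7.15% held an E-box, 0.938% a D-box and 6.45% a ROR element, for which the spelling TAGGTCA was searched together with its common variant, TGGGTCA. The binding motif of GATA factors was searched in 4 spellings, of which the canonical one is AGATAA, and the others were those that end in a different purine, as AGATAG does, or begin with a different base, as TGATAA does, or differ in both ways, as TGATAG does. It was in 29.8% of all promoters and in 0 windows of these 9 genes. No window held more than 1 kind of element. These matches describe the letters of the window and not occupancy by any factor.

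The 8 arrays had 14788 to 16387 detected probes of 45281, and their pairwise Pearson r ranged from 0.944 to 0.985 over the 12779 probes detected in all of them. The single Gata4 probe was at 6.27, 5.85, 5.71 and 5.84 in AAV-Cre replicates 1 to 4, against 5.31, 5.37, 5.02 and 5.10 in AAV-GFP replicates 1 to 4, in normalized log2 signal. The difference was 0.72 ± 0.16 (SE), higher in AAV-Cre (limma adjusted p = 0.518). The probe passed detection only in AAV-Cre replicate 1, so it lay too near background to check the labels or the excision. Hepatocyte markers were measured for 6 of 10 listed genes, with a summed linear level of 100738 to 129641 in AAV-Cre and 108250 to 110837 in AAV-GFP, and Apoa1, Ttr, Cps1 and Cyp2e1 had no detected probe under these names.

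The question put to the clock genes was whether hepatocytes that had received AAV-Cre differed from those that had received AAV-GFP. No clock gene passed the test. With limma over all 19618 probes, 0 of the 16 clock probes were called at a Benjamini-Hochberg adjusted p under 0.25, where 1 probe of the whole array (0.0051%) was called. At an unadjusted p under 0.05, 1 of the 16, the Nr1d1 probe, passed, where 9.49% of all probes did. The AAV-Cre and AAV-GFP values did not separate for any of the 16 probes, while 4.86% of all probes had groups that did not overlap, 3.12% with every AAV-Cre value above and 1.74% with every AAV-Cre value below the AAV-GFP values. In 11 of the 16 the AAV-Cre mean was higher, with a median log2 difference of 0.22, beside 11075 of 19618 probes and a median of 0.044 over all of them. This direction turned with 1 array. Without AAV-GFP replicate 1 the median was -0.27 over the 16 clock probes and 0.039 over all probes.

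One array stood apart from the rest in these genes. AAV-GFP replicate 1 was the outermost of the 8 arrays by more than 1 on the log2 scale in 7 of the 16 clock probes, lowest in 6 and highest in 1. Each of the other 7 arrays was outermost by that margin in 0 of the 16. Over all detected probes AAV-GFP replicate 1 was outermost in this way in 87 (0.443%), close to the 88 (0.449%) of AAV-GFP replicate 4, and the other arrays had 14 to 74. Group differences of the core clock and output genes whose sign or size turned on this array are therefore given without it as well. The array was singled out by its values in these genes, so fits without it are no separate test. In bulk RNA of this kind, fewer cells that express a gene and less RNA per cell cannot be told apart.

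**Figure D1:**
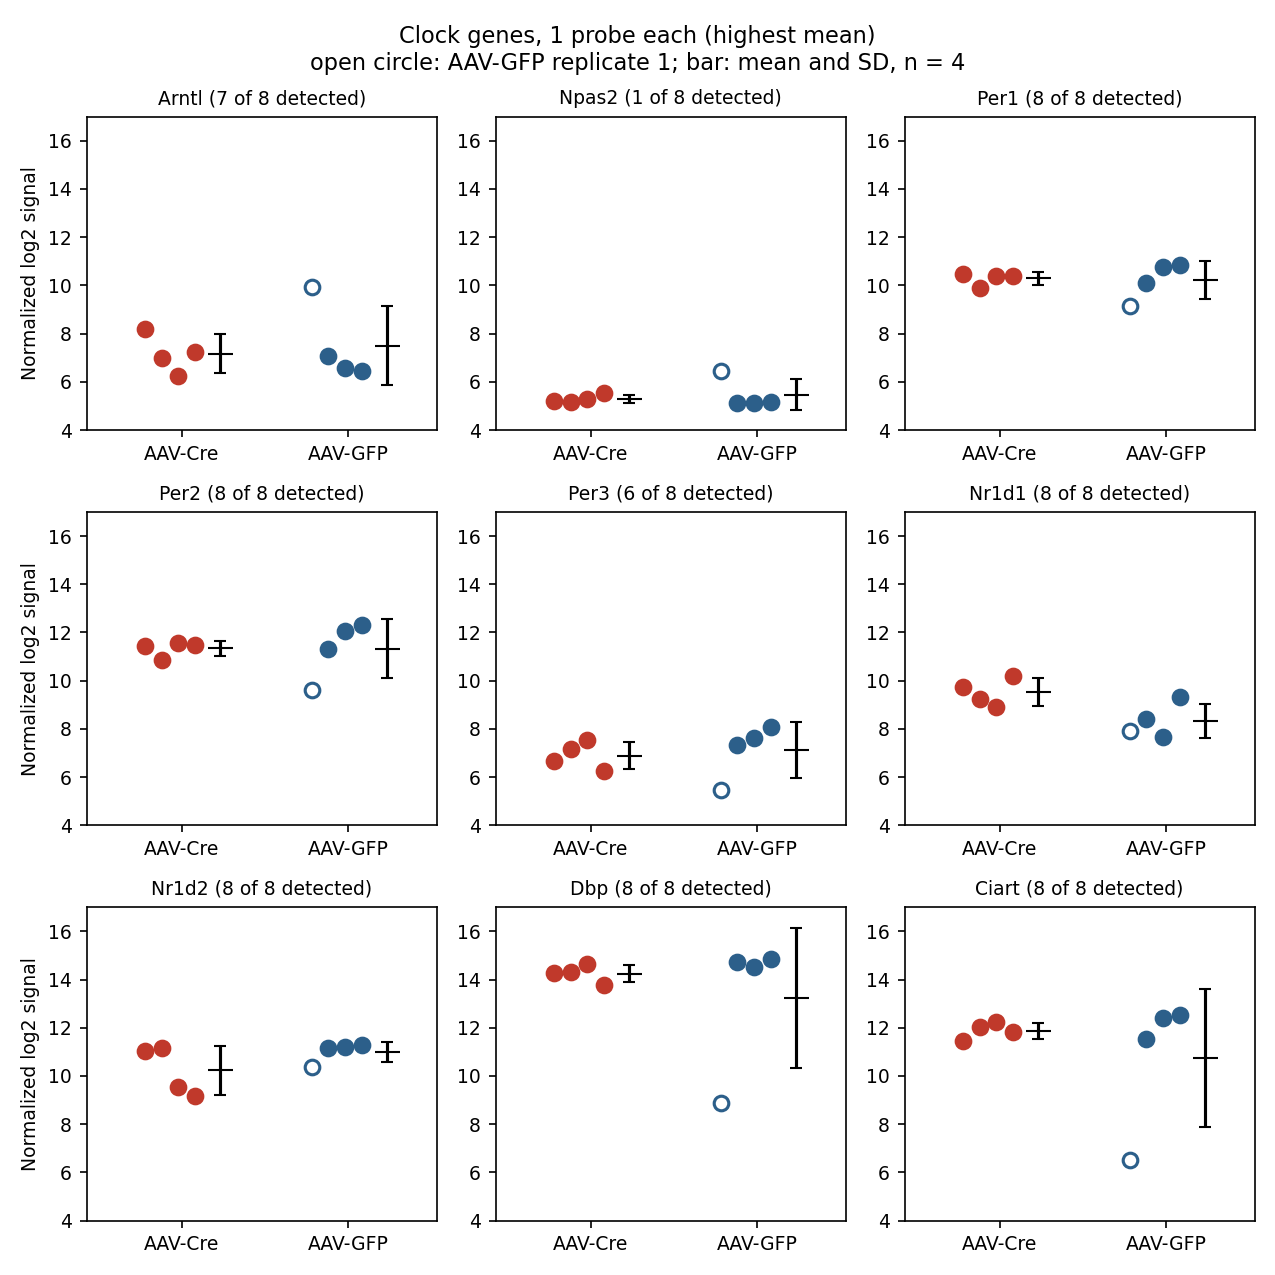
Normalized log2 signal of 9 clock genes, 1 probe each (the one with the highest mean), in 4 AAV-Cre arrays (red) and 4 AAV-GFP arrays (blue), with the mean and SD beside each group. AAV-GFP replicate 1 (open circle) lies far above the other arrays for Arntl, at 9.92, and far below them for Dbp, at 8.88, and Ciart, at 6.50, whereas the Nr1d1 values are shifted upwards in AAV-Cre with overlap.

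Among the activators, Arntl had a normalized log2 signal of 8.21, 7.00, 6.26 and 7.22 in AAV-Cre replicates 1 to 4, against 9.92, 7.07, 6.56 and 6.44 in AAV-GFP replicates 1 to 4. AAV-GFP replicate 1 was the highest and AAV-Cre replicate 1 the second highest, and AAV-Cre replicate 3 was the only array in which the probe was not detected. The AAV-Cre minus AAV-GFP difference was -0.33 ± 0.76 (SE, n = 4 per group; limma adjusted p = 0.889) and it turned to 0.48 ± 0.42 without AAV-GFP replicate 1 (adjusted p = 0.701). In deposited signal, before any correction, Arntl stood at 1522 in AAV-GFP replicate 1 and at 339 to 564 in the other 7 arrays.

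Npas2, which can replace CLOCK as the partner of ARNTL, was at 5.21, 5.18, 5.29 and 5.55 in AAV-Cre replicates 1 to 4, against 6.43, 5.14, 5.13 and 5.16 in AAV-GFP replicates 1 to 4. It passed detection only in AAV-GFP replicate 1, the array that was also highest for Arntl. The group difference was -0.16 ± 0.29 (limma adjusted p = 0.854), and 0.16 ± 0.14 without AAV-GFP replicate 1, and no fold is given because the gene was not above background in any AAV-Cre array. Clock itself, the other partner, was at 11.82, 11.63, 11.26 and 12.08 in AAV-Cre replicates 1 to 4, against 12.14, 11.20, 11.28 and 11.30 in AAV-GFP replicates 1 to 4, with AAV-GFP replicate 1 again the highest, by 0.051.

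The output gene Dbp encodes a PAR bZIP transcription factor. Its probe was at 14.26, 14.31, 14.63 and 13.77 in AAV-Cre replicates 1 to 4, against 8.88, 14.71, 14.53 and 14.85 in AAV-GFP replicates 1 to 4. Apart from AAV-GFP replicate 1 the arrays lay within 13.77 to 14.85, and AAV-Cre replicate 4 was the lowest of these 7. The group means were 14.24 ± 0.35 in AAV-Cre and 13.24 ± 2.91 in AAV-GFP (SD, n = 4 each), a difference of 1.00 ± 1.21 (SE; limma adjusted p = 0.765). Without AAV-GFP replicate 1 the difference was of the opposite sign, -0.45 ± 0.22 (adjusted p = 0.609). In deposited signal the probe read 904 in AAV-GFP replicate 1 and 11955 to 30513 elsewhere.

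Ciart was measured by 3 probes. The brightest was at 11.43, 12.02, 12.23 and 11.82 in AAV-Cre replicates 1 to 4, against 6.50, 11.52, 12.39 and 12.52 in AAV-GFP replicates 1 to 4. The second was at 11.01, 11.40, 11.59 and 11.23 in AAV-Cre replicates 1 to 4, against 5.57, 11.21, 12.10 and 12.16 in AAV-GFP replicates 1 to 4. On all 3 probes AAV-GFP replicate 1 was the lowest array, and in it the other two probes were not detected. The dimmest was at 9.25, 10.45, 10.74 and 9.79 in AAV-Cre replicates 1 to 4, against 5.35, 10.13, 10.74 and 10.54 in AAV-GFP replicates 1 to 4. The group differences of the 3 probes were 1.14 ± 1.18, 1.04 ± 1.30 and 0.87 ± 1.10 (limma adjusted p = 0.720, 0.774 and 0.778), and without AAV-GFP replicate 1 they were -0.27 ± 0.29, -0.52 ± 0.27 and -0.41 ± 0.36 (adjusted p = 0.760, 0.611 and 0.701). AAV-GFP replicate 1 minus the nearest of the other 7 arrays was -4.93, -5.43 and -3.90 on the log2 scale for the 3 Ciart probes and -4.90 for Dbp. Of these 2 genes, the Ciart promoter held the 3 E-boxes printed above and the Dbp window held none.

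The Per genes encode the repressors that bind CRY proteins. Per1, through its brighter probe, was at 10.47, 9.89, 10.40 and 10.41 in AAV-Cre replicates 1 to 4, against 9.14, 10.12, 10.76 and 10.83 in AAV-GFP replicates 1 to 4. The other Per1 probe had the same lowest array, with 8.37 to 9.37 in AAV-Cre, against 7.60 in AAV-GFP replicate 1 and 8.59 to 9.35 in the remaining AAV-GFP arrays. The differences of the 2 probes were 0.080 ± 0.36 and 0.25 ± 0.39 (limma adjusted p = 0.946 and 0.823), and -0.28 ± 0.23 and -0.11 ± 0.29 without AAV-GFP replicate 1. The sign of the Per1 difference thus depended on 1 AAV-GFP array.

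Per2 was at 11.42, 10.87, 11.57 and 11.49 in AAV-Cre replicates 1 to 4, against 9.61, 11.33, 12.07 and 12.31 in AAV-GFP replicates 1 to 4, through the brightest of its 3 probes. A second bright probe was at 10.68 to 11.28 in AAV-Cre, against 9.39 in AAV-GFP replicate 1 and 11.13 to 12.10 in AAV-GFP replicates 2 to 4. On both, AAV-GFP replicates 3 and 4 were the highest arrays and AAV-GFP replicate 1 the lowest, so the AAV-Cre arrays sat between them. The differences were 0.0090 ± 0.53 and -0.028 ± 0.52 (limma adjusted p = 0.996 and 0.987), against -0.56 ± 0.28 and -0.60 ± 0.26 without AAV-GFP replicate 1 (adjusted p = 0.609 for both). The remaining Per2 probe lay near background in every array, at 5.52 to 6.67, and was detected in 6.

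Per3, whose promoter holds the 2 D-boxes printed above, was at 6.65, 7.15, 7.53 and 6.26 in AAV-Cre replicates 1 to 4, against 5.47, 7.34, 7.60 and 8.09 in AAV-GFP replicates 1 to 4. The probe was not detected in AAV-Cre replicate 4 and AAV-GFP replicate 1, the lowest arrays. Its group difference was -0.23 ± 0.54 (limma adjusted p = 0.890) and -0.78 ± 0.33 without AAV-GFP replicate 1, which passed an unadjusted p under 0.05 but not the adjustment (limma adjusted p = 0.609). A second Per3 probe was detected only in AAV-Cre replicate 1, at 6.30.

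Nr1d1 was the clock gene with the largest group difference in standard errors. It was at 9.75, 9.24, 8.89 and 10.20 in AAV-Cre replicates 1 to 4, against 7.91, 8.42, 7.68 and 9.31 in AAV-GFP replicates 1 to 4. AAV-Cre replicates 1 and 4 exceeded every AAV-GFP array, and AAV-Cre replicates 2 and 3 lay below AAV-GFP replicate 4. The means were 9.52 ± 0.57 in AAV-Cre and 8.33 ± 0.72 in AAV-GFP (SD, n = 4 each), a difference of 1.19 ± 0.39 (SE) (limma adjusted p = 0.518). The difference was 1.05 ± 0.44 without AAV-GFP replicate 1 and ranged from 0.74 to 1.52 over the 21 alternatives, with a lowest adjusted p of 0.296. An adjusted p under 0.25 was reached in none of them.

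In AAV-GFP replicate 1, Nr1d1 lay above AAV-GFP replicate 3 and thus inside the range of the other arrays. Non-hepatocyte markers did not all separate the groups. The summed linear level of the 2 measured cholangiocyte markers of 6 listed was 1539 to 2636 in AAV-Cre and 791 to 1369 in AAV-GFP. Krt19, Krt7, Epcam and Spp1 had no detected probe under these names. The sum of 8 of 9 macrophage markers was 1677 to 2492 in AAV-Cre and 1077 to 1811 in AAV-GFP (Cd68 had none). The cholangiocyte sums did not overlap between the groups and the macrophage sums did. Sums of endothelial, stellate cell, lymphocyte, neutrophil and erythroid markers, given at the end, overlapped as well. By probe, the AAV-Cre mean was higher in 3 of 3 cholangiocyte, 7 of 9 macrophage, 8 of 8 endothelial and 3 of 5 stellate cell probes. It was higher in 2 of 7 hepatocyte probes. At an unadjusted limma p under 0.05, 1 cholangiocyte, 3 macrophage and 2 endothelial probes were higher and 0 lower, beside 5.21% of all probes higher. The part of these other cells in the Nr1d1 values was not tested.

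Nr1d2, the second REV-ERB gene, was at 11.05, 11.17, 9.53 and 9.18 in AAV-Cre replicates 1 to 4, against 10.39, 11.18, 11.21 and 11.27 in AAV-GFP replicates 1 to 4. The AAV-Cre arrays formed a high pair, replicates 1 and 2, and a low pair, replicates 3 and 4, and AAV-GFP replicate 1 lay between them. The difference was -0.78 ± 0.47 (limma adjusted p = 0.549), -0.99 ± 0.50 without AAV-GFP replicate 1, and 0.098 ± 0.28 without AAV-Cre replicates 3 and 4. A second Nr1d2 probe, detected in AAV-Cre replicates 1 and 2 alone, was at 6.25, 6.30, 5.46 and 5.38 in AAV-Cre replicates 1 to 4, against 5.23 to 5.80 in AAV-GFP, with a difference of 0.26 ± 0.25 (adjusted p = 0.702) of the opposite sign to the first. On this second probe AAV-Cre replicates 3 and 4 were again the lower pair, but undetected and within the AAV-GFP range. These 2 arrays also had the fewest detected probes of all, 14788 and 15067, against 15406 to 16387 in the other arrays. The part of this in their low values, here and in the genes below, was not tested.

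**Figure D2:**
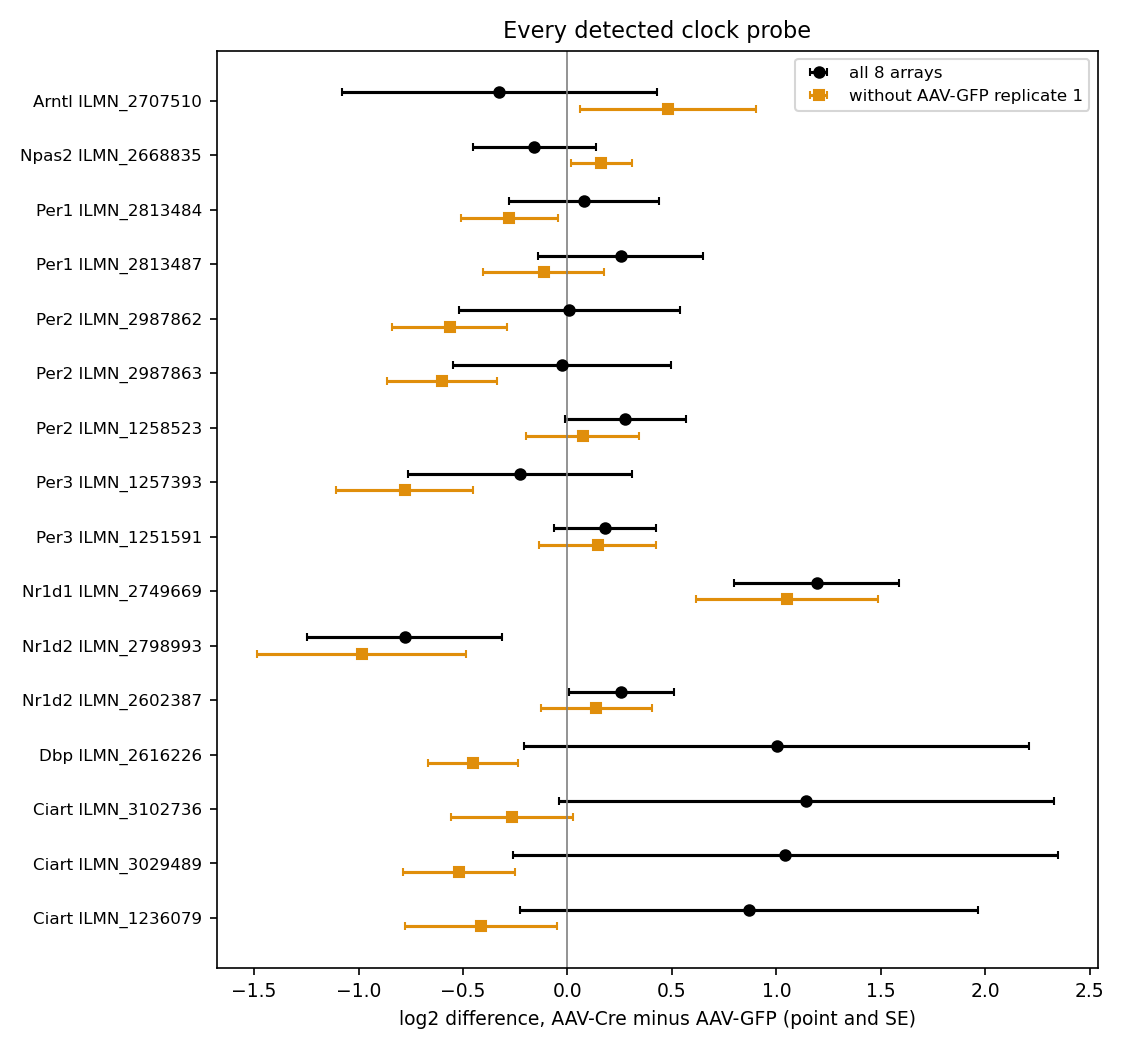
AAV-Cre minus AAV-GFP difference of every detected clock probe on the log2 scale, with its standard error from limma, over all 8 arrays (black circles, n = 4 per group) and without AAV-GFP replicate 1 (orange squares, 4 AAV-Cre and 3 AAV-GFP arrays). Dbp and the 3 Ciart probes move to the other side of 0, from 1.00 to -0.45 for Dbp, whereas Nr1d1 stays at 1.19 and 1.05 in the 2 fits.

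Set against AAV-GFP replicates 2 to 4 alone, AAV-GFP replicate 1 departed in opposite directions for Arntl and for Dbp, Ciart and the Per genes. Its Arntl signal was higher by 3.23 on the log2 scale, or 9.35-fold, than the mean of the other 3 AAV-GFP arrays, which had an SD of 0.34. Npas2 was detected in it and in none of the other 3, which were near background, so no fold is given. Its Dbp signal lay 5.82 log2 units below the mean of those arrays, 56.5-fold lower, where their SD was 0.16, and the Ciart probe that was detected in it lay 49.8-fold lower, where their SD was 0.54. For the 2 Ciart probes not detected in AAV-GFP replicate 1, replicates 2 to 4 were at least 53.6-fold and at least 21.0-fold higher, against the lowest signal of a detected probe on that array. The Per genes were lower too, by a log2 difference of -1.43 for Per1 and -2.29 for Per2, and replicates 2 to 4 were at least 3.02-fold higher for Per3. For the REV-ERB genes the differences were -0.56 for Nr1d1 and -0.83 for Nr1d2. These values compare 1 array with 3 and carry no test.

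The other genes of the pathway were taken from 3 lists: further loop genes, modifiers of clock proteins, and further outputs. Of 38 such genes 29 were measured, by 49 probes. In AAV-GFP replicate 1, 17 of the 23 output probes lay below the mean of the other 7 arrays and 6 above it, with a median difference of -0.98, and it was the lowest array for 12 and the highest for 1, the Leo1 probe. Among the 6 above the mean were probes of Nampt (0.62), Leo1 (0.61), Tspan4 (0.58) and Noct (0.43). The same median was -1.34 over the 16 probes of the core clock and output genes, 0.26 over the 5 probes of loop genes, -0.079 over the 21 probes of modifiers and -0.019 over all probes. The genes described next, and Clock above, were chosen after their values in this array were seen.

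Usp2, which encodes a deubiquitinase, was at 7.56 in AAV-GFP replicate 1 and at 11.66 to 13.20 in the other 7 arrays, 45.0-fold lower than the mean of AAV-GFP replicates 2 to 4. Lpin1, a phosphatidate phosphatase gene, was at 10.63 and 10.48 on its 2 probes in AAV-GFP replicate 1, against 12.59 to 13.73 and 12.51 to 13.52 in the other 7. Rgs16, which encodes a regulator of G protein signalling, was at 10.85 in AAV-GFP replicate 1, against 12.47 to 14.24. These 4 probes were the output probes of which AAV-GFP replicate 1 was outermost by more than 1. Tef, a relative of Dbp that encodes another D-box factor, was at 10.65 in AAV-GFP replicate 1, against 11.59 to 12.87 in the other 7. Cry2, a partner of the PER proteins, was at 9.02, against 9.47 to 10.31. Alas1, whose enzyme opens heme synthesis, was at 14.5, against 14.74 to 15.99. In each of these genes AAV-GFP replicate 1 was the lowest of the 8 arrays.

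**Figure D3:**
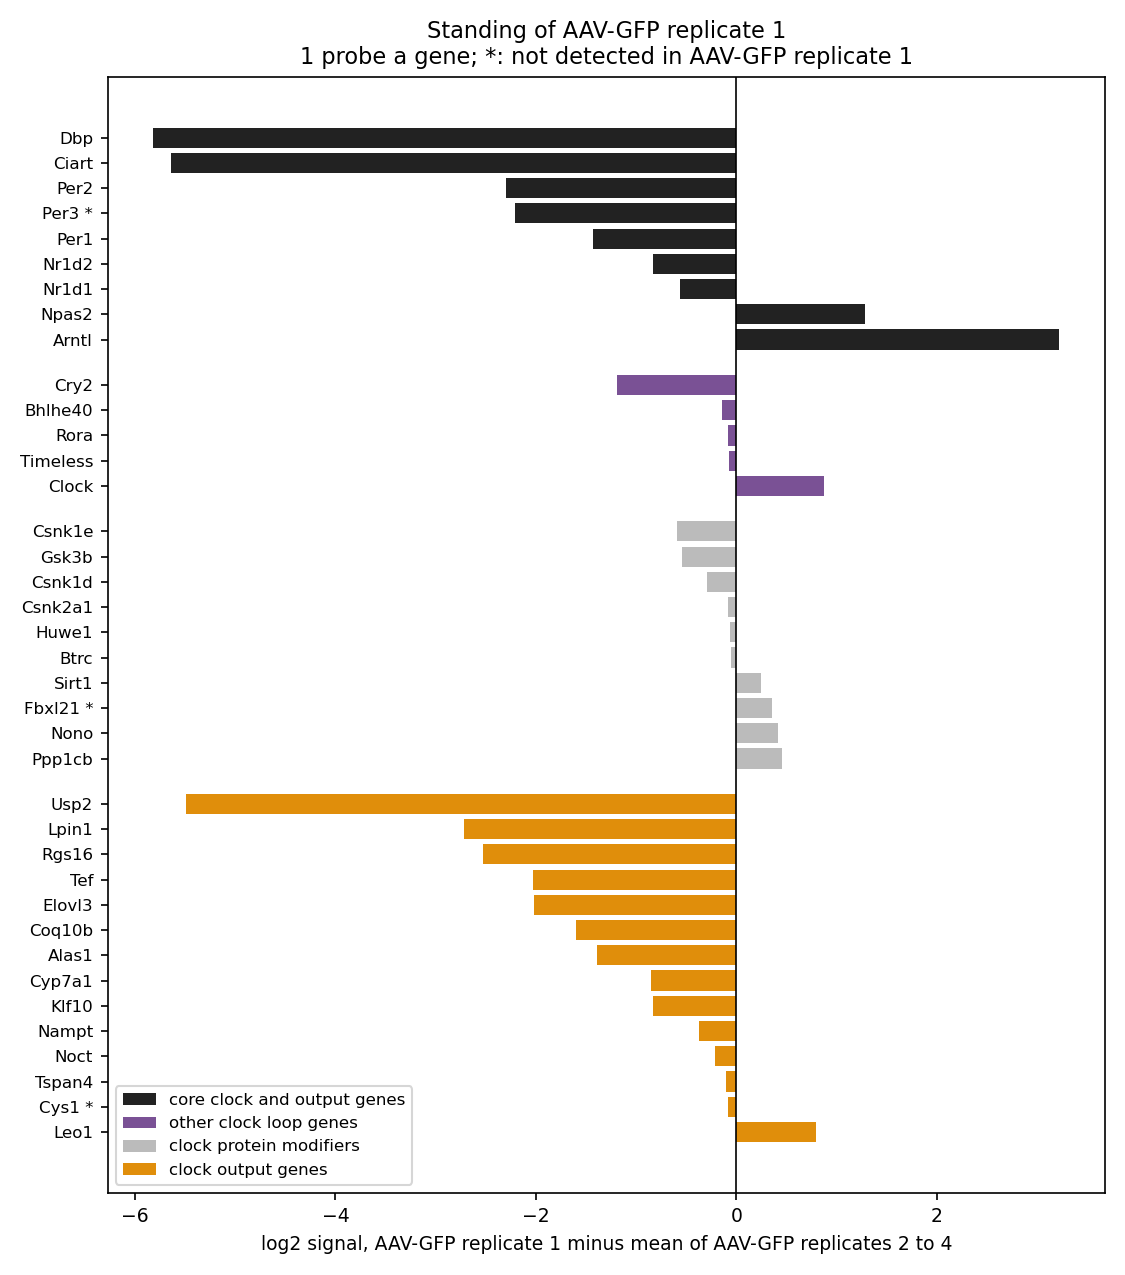
Log2 signal of AAV-GFP replicate 1 minus the mean of AAV-GFP replicates 2 to 4 for clock genes, 1 probe a gene, with bars grouped into core clock and output genes, other loop genes, modifiers and other outputs, and a star where the probe was not detected in AAV-GFP replicate 1. Dbp, at -5.82, Ciart, at -5.64, and Usp2, at -5.49, reach farthest down and Arntl, at 3.23, farthest up, the Npas2 bar is measured against arrays in which it was not detected, and modifiers stay within 1 of 0.

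Other values of AAV-GFP replicate 1 are given beside this pattern. Its Xist probe read 13.32, and AAV-GFP replicate 4 read 13.77, against 5.07 to 5.33 in the other 6 arrays, and the labels do not state the sex of the mice. Both high arrays were AAV-GFP arrays, so Xist was unbalanced between the compared groups. The fit had no covariate for it, and its part in the group differences was not tested. Fits without AAV-GFP replicates 1 and 4 hold only arrays with low Xist. AAV-GFP replicate 4 shared the Xist level but not the clock values, with Dbp at 14.85, Ciart at 12.52 and Arntl at 6.44. Summed hepatocyte markers were at 110837 in AAV-GFP replicate 1, within the range of all arrays, and 16364 of its probes were detected, against 14788 to 16387 over the 8 arrays. Its Pearson r with the other arrays was 0.944 to 0.979. Time of day, feeding and chip position are not given in the sources used here, and their part in these values was not tested.

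The phase relation of activators and repressors was examined across the 8 arrays by the correlation of each gene with Arntl, with exact permutation tests adjusted over these 8 relations. Ciart and Arntl moved in opposite directions, with a Pearson r of -0.93 (exact permutation p = 7.19e-04, adjusted p = 0.00575) and a Spearman rho of -0.90 (exact p = 0.00456, adjusted p = 0.0290). Per3 gave an r of -0.89 (exact permutation p = 0.00437, adjusted p = 0.0175) and a rho of -0.88 (adjusted p = 0.0290). Dbp gave an r of -0.90 (exact permutation p = 0.0166, adjusted p = 0.0385) and a rho of -0.79 (adjusted p = 0.0745), and Per2 an r of -0.85 (exact permutation p = 0.0192, adjusted p = 0.0385) and a rho of -0.71 (adjusted p = 0.115). These repressors and outputs were thus low where Arntl was high.

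Npas2 had an r of 0.85 with Arntl (exact permutation p = 0.0362, adjusted p = 0.0494) and a rho of 0.48 (adjusted p = 0.389), but 7 of its 8 values were not above background and its r was 0.14 without AAV-GFP replicate 1, so its r rests on that array. Per1 had an r of -0.78 (exact permutation p = 0.0371, adjusted p = 0.0494) and a rho of -0.43 (adjusted p = 0.399). The 2 REV-ERB genes did not follow, with an r of -0.19 for Nr1d1 (exact permutation p = 0.686, adjusted p = 0.784; rho 0.12) and of -0.035 for Nr1d2 (exact permutation p = 0.925, adjusted p = 0.925; rho -0.36). Counting Npas2, 6 of the 8 relations passed an adjusted p under 0.05 by Pearson's r and 2 of 8 by Spearman's rho. Npas2 and Per1 fell short of it without background correction, with an offset of 50, with cyclic loess and with the authors' value table, which left 4 of 8. Taken as deviations from the group means, r was -0.94 for Ciart, -0.93 for Per3, -0.90 for Dbp and -0.86 for Per2.

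Most of this rested on AAV-GFP replicate 1. Without it 0 of the 8 relations passed, where 3 did without AAV-Cre replicate 2, AAV-Cre replicate 4 or AAV-GFP replicate 2, and 2 without AAV-GFP replicate 3 or AAV-GFP replicate 4. Without AAV-GFP replicate 1, the r of Ciart was -0.85 over 7 arrays (exact permutation p = 0.00952, adjusted p = 0.0762), that of Per3 -0.74, that of Dbp -0.53 and that of Per2 -0.46 (adjusted p = 0.228, 0.497 and 0.497, exact permutation). Per1 was then at -0.25, Nr1d1 at 0.49 and Nr1d2 at 0.13. Without the 2 arrays farthest from the median of Arntl, AAV-Cre replicate 1 and AAV-GFP replicate 1, r over 6 arrays was -0.81 for Ciart, -0.78 for Per3, -0.66 for Dbp, -0.61 for Per2, -0.59 for Per1, 0.37 for Npas2, 0.38 for Nr1d1 and -0.069 for Nr1d2. Of those 7, AAV-Cre replicate 1 had the highest Arntl signal, 8.21, and the lowest signal of the brightest Ciart probe, 11.43, beside AAV-GFP replicate 2 at 11.52.

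**Figure D4:**
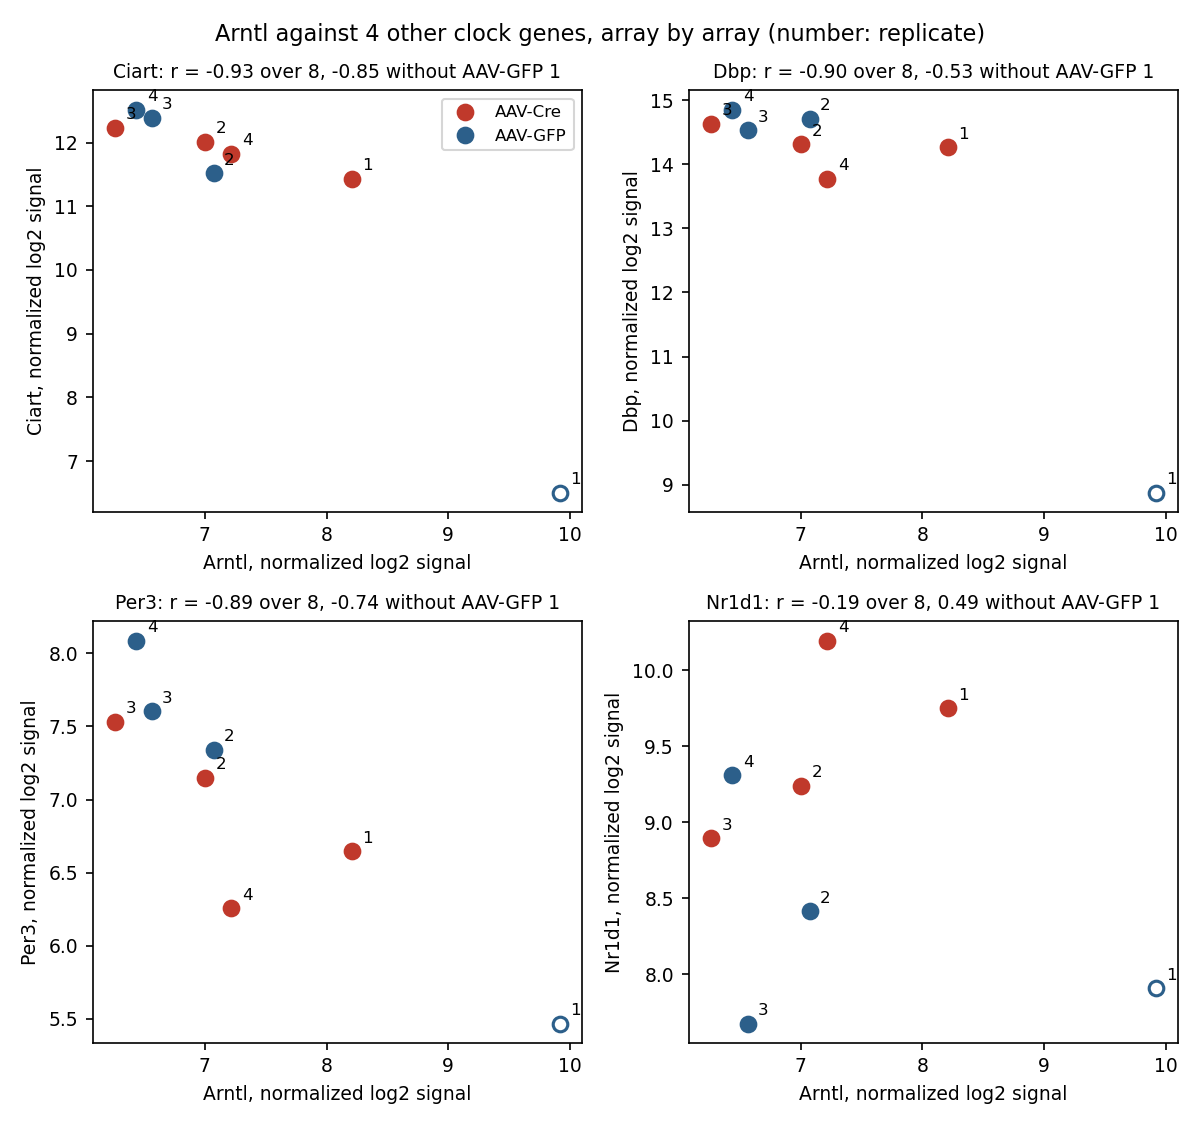
Normalized log2 signal of Ciart, Dbp, Per3 and Nr1d1 (y axes) against that of Arntl (x axes), 1 point an array, AAV-Cre in red and AAV-GFP in blue, numbered by replicate, with AAV-GFP replicate 1 open. The Pearson r in each panel is given over 8 arrays and without AAV-GFP replicate 1, at -0.93 and -0.85 for Ciart and at -0.90 and -0.53 for Dbp.

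The genes whose pattern over the 8 arrays was most like that of Arntl were sought among 7273 named genes detected in all arrays, the 9 core clock and output genes left out, and are given as a description. The highest r were those of Tpgs2 (0.98), Rnf125 (0.98), Commd7 (0.98), Rps7 (0.97), Gclm (0.95), Cibar1 (0.95), Rps12 (0.95) and Siah2 (0.94). The lowest were those of Mtss1 (-0.99), Mknk2 (-0.99), Adarb1 (-0.98), Klf13 (-0.97), Ppif (-0.97), Atg2b (-0.97), Usp2 (-0.96) and Ptp4a1 (-0.96). Without AAV-GFP replicate 1 the r of these genes was 0.79 to 0.97 for the first 8 and -0.96 to -0.86 for the second 8. The genes were chosen on all 8 arrays, the remaining ones included, so these ranges are no separate check. Mtss1 was at 8.94 in AAV-GFP replicate 1 and at 9.95 to 10.61 in the other arrays, and Rnf125 at 11.83 against 9.82 to 10.73. In all 16 genes AAV-GFP replicate 1 was the outermost array. Choice by r with Arntl favours such genes, because Arntl was itself outermost in that array. Usp2 is also one of the clock outputs above.

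Between the virus groups, 0 of the 49 probes of other clock genes were called and 4 passed an unadjusted limma p under 0.05, 1 higher in AAV-Cre (background 5.21%) and 3 lower (background 4.28%). Without AAV-GFP replicate 1 the number was 9, with 0 higher, which is 18.4% beside 7.97% of all probes in that fit. That array was the lowest of the 8 in 12 of the 23 output probes, so its removal favours lower AAV-Cre values in these genes. These shares are therefore not a fair comparison. The number was 10 when AAV-Cre replicate 1 was left out, which is 20.4% beside 16% of all probes. It was 7 without AAV-Cre replicate 2, which is 14.3% beside 13.8%, and 2 without AAV-Cre replicate 3 or 4 or AAV-GFP replicate 3 or 4. Elovl3, an elongase of very long fatty acids, was at 11.05, 10.53, 10.81 and 11.76 in AAV-Cre replicates 1 to 4, against 6.93, 10.29, 10.41 and 6.14 in AAV-GFP replicates 1 to 4. Every AAV-Cre array lay above every AAV-GFP array, and the 2 low AAV-GFP arrays were those with high Xist. The difference was 2.60 ± 0.95 (limma adjusted p = 0.518), 2.09 ± 0.98 without AAV-GFP replicate 1, and 0.69 ± 0.34 without AAV-GFP replicates 1 and 4, and in neither of these did it pass an unadjusted p under 0.05.

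Nampt, whose enzyme salvages nicotinamide for NAD synthesis, was at 7.94, 8.37, 6.58 and 5.27 in AAV-Cre replicates 1 to 4, against 8.40, 8.73, 8.99 and 8.62 in AAV-GFP replicates 1 to 4. All AAV-Cre arrays were lower, replicates 3 and 4 most, the pair that was low for Nr1d2 as well. The difference was -1.65 ± 0.60 (limma adjusted p = 0.518), -1.74 ± 0.68 without AAV-GFP replicate 1 and -0.53 ± 0.22 without those 2 arrays. A weaker Nampt probe had a difference of -0.40 ± 0.21.

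Bhlhe40, which encodes the E-box repressor DEC1, was at 12.05, 12.74, 11.47 and 10.84 in AAV-Cre replicates 1 to 4, against 12.53, 12.27, 12.73 and 13.001 in AAV-GFP replicates 1 to 4. The groups overlapped, with a difference of -0.86 ± 0.37 (limma adjusted p = 0.518), -0.89 ± 0.43 without AAV-GFP replicate 1, where it did not pass an unadjusted p under 0.05, and -0.24 ± 0.28 without AAV-Cre replicates 3 and 4. Nono, which encodes a PER-binding protein, was not detected in any AAV-Cre array and was detected in 2 AAV-GFP arrays, with a measured difference of -0.69 ± 0.22 (limma adjusted p = 0.518) and no fold, since it lay at background. Within the loop list the next smallest p-values were those of Timeless (-0.56 ± 0.33) and of Rora, a nuclear receptor gene whose product activates through ROR elements (-0.19 ± 0.20). Within the modifier list they were those of the deacetylase gene Sirt1 (-0.26 ± 0.14) and the ubiquitin ligase gene Huwe1 (-0.99 ± 0.59, and 0.24 ± 0.16 without AAV-Cre replicates 3 and 4), and within the output list that of Noct (-1.07 ± 0.53). None of these was under 0.05, and a second Huwe1 probe differed by 0.22 ± 0.28.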

How the data were processed

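Total RNA was amplified, biotin-labelled and hybridised by the authors to Illumina MouseWG-6 v2 bead arrays, 1 a sample. The deposited non-normalized table gives a linear intensity and a detection p-value per probe and array, as the authors' GenomeStudio export wrote them; its version is not stated in them or in the labels. The authors also deposited a value table of quantile-normalized intensity for 16820 probes, which served as an alternative. It lay within 0.0457 (log2) of a quantile normalization of the first table and its column medians were 708.1 to 709.1, so it is linear and uncentred and runs in the same direction.

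Background was removed by normexp, its parameters estimated through the detection p-values (offset 16). Then log2 was taken and the log2 values were quantile-normalized between arrays (limma 3.58.1, R 4.3.3). lmFit and eBayes without covariates compared the groups over the 19618 probes with a detection p-value of 0.05 or lower in 1 or more arrays. Calls were made at a Benjamini-Hochberg adjusted p under 0.25, the threshold the study used with another test, SAM, which was not run. Every difference is AAV-Cre minus AAV-GFP in log2. Gene symbols came from the platform annotation, parts of which may be out of date: 14408 probes of the value table had 1 symbol, 7 had several and 2405 had none, 14394 gene identifiers were in the reference, and 0 symbols changed. The 5210 detected probes without a single symbol were tested and not named. They include the 2798 detected probes outside the value table, so a gene reported without a detected probe may have had an unnamed one. A lower bound of a fold set the brighter mean against the higher of the dim probe's own signal and the lowest signal of any detected probe on that array.

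The clock genes and the lists were chosen with earlier results of these data known. Named were every detected probe of the core genes, each other clock gene at an unadjusted p under 0.05 with lists filled to 3 by p, up to 3 genes of each metabolic or stress list, and the 8 genes with the highest and the 8 with the lowest correlation with Arntl. Sequences were RefSeq promoter entries. Correlations used exact enumeration (scipy 1.17.1), and figures matplotlib 3.10.9. The limma step and the permutation step were tested on simulated data. Precision was limited by the number of arrays, with a median standard error of 0.209 for a difference. Alternatives changed the background correction, the offset, the normalization, the source of values, the filter on detection, the choice of 1 probe a gene, the eBayes settings, weights for arrays, a block for replicate number, and which arrays entered.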

Additional observations from a re-analysis of the deposited data

Results flagged for a closer look

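In groups of 4 arrays, a value was singled out when its gap to the nearest other value, as a share of the range of the group, exceeded Dixon's critical value. This held in 12 of 80 groups, and chance alone gives about 1 in 20 where groups are independent. These groups share arrays, some share a gene, and the genes were chosen with earlier results known. Their share can therefore not be set against that rate. Of the core clock and output probes it held in 9 of 32 groups, and in 6 of these the array was AAV-GFP replicate 1.

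In AAV-GFP replicate 1 the Dbp probe stood alone at 8.88, where the nearest AAV-GFP array was at 14.53, and the 3 Ciart probes at 6.50, 5.57 and 5.35, where the nearest were at 11.52, 11.21 and 10.13. Npas2 stood alone as the highest value, 6.43, beside 5.16, and Nr1d2 as the lowest, 10.39, beside 11.18. The Nr1d2 value was nevertheless within the range of all 8 arrays, since AAV-Cre replicates 3 and 4 were at 9.53 and 9.18. Angptl4, a fasting-induced inhibitor of lipoprotein lipase, also stood alone there as the lowest AAV-GFP value, at 13.41 beside 14.32.

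The other values were not from that array. Per1 was the lowest of its group in AAV-Cre replicate 2, at 9.89, and the near-background Per2 probe in AAV-Cre replicate 1, at 5.67. The weak Per3 probe was highest of the AAV-GFP arrays in replicate 4, at 5.96, without passing detection. Scd1, a fatty acid desaturase gene, was highest of the AAV-Cre arrays in replicate 1, at 15.997, and Tsc22d3, a glucocorticoid-induced gene, was lowest of the AAV-GFP arrays in replicate 2, at 9.25.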

How the results depend on the processing

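With 4 arrays a group the limits were wide, and 0 clock probes were called under every alternative run. Over all probes the count called was 2 without background correction, with an offset of 50, with scaling to the 75th percentile, with trend and robust eBayes and with array weights, 3 with the authors' value table, 0 among probes detected in all 8 arrays, and 1 to 10 with each array left out, 10 being without AAV-GFP replicate 2. At an unadjusted p under 0.05 it was 3405 without the detection filter, 1074 when AAV-GFP replicates 1 and 4 were dropped, 735 when AAV-Cre replicates 3 and 4 were, and between 1004, on dropping AAV-Cre replicate 4, and 3146, on dropping AAV-Cre replicate 1, with each array left out. Of 1862 such probes 54.9% were higher in AAV-Cre, but 38.2% with cyclic loess, 43.5% with the replicate block and 41.9% without AAV-Cre replicate 2. Scaling to the 75th percentile moved the median difference of all probes to 0.12, and no normalization moved it by over 0.1. The clock probes at that p numbered 2 without AAV-Cre replicates 3 and 4, and 1 to 2 with each array left out. Those of the other clock genes numbered 2 when detected in all 8 arrays, 2 when AAV-GFP replicates 1 and 4 were dropped, 1 when AAV-Cre replicates 3 and 4 were, and 2 to 10 with each array left out. The relations with Arntl past the threshold numbered 0 without AAV-GFP replicates 1 and 4, and 0 to 5 with each array left out.

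Signs turned mostly with the arrays used. Without AAV-GFP replicates 1 and 4 the difference was 0.35 for Arntl, 0.17 for Npas2, -0.15 and -0.36 for the brightest Per1 and Per2 probes, -0.021 for the weak Per2 probe, -0.37 for Dbp and -0.080, -0.35 and -0.38 for Ciart, and r with Arntl was 0.26 for Nr1d2 and 0.58 for Nr1d1. Without AAV-Cre replicates 3 and 4 it was 0.11 for Arntl, -0.031 and -0.049 for Per1, -0.19 for Per2, 0.098 for Nr1d2, 0.24 for Huwe1 and 0.12 for Hspa5. Array weights gave -0.0050 for Per1 and -0.11 for Per2. The brightest Per2 probe was at -0.030 without background correction, -0.041 with cyclic loess and -0.024 with the authors' table, and scaling to the 75th percentile gave 0.026 for Npas2 and 0.016 for the second Per2 probe. Cyclic loess gave an r of 0.037 for Nr1d2.

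With each array left out, differences ranged from -0.68 to 0.48 for Arntl, -0.27 to 0.16 for Npas2, -0.28 to 0.29 and -0.11 to 0.47 for Per1, -0.56 to 0.34 and -0.60 to 0.30 for Per2, -0.78 to 0.094 and -0.026 to 0.33 for Per3, -0.45 to 1.54 for Dbp, and -0.27 to 1.74, -0.52 to 1.68 and -0.41 to 1.39 for Ciart. The r with Arntl ranged from -0.42 to 0.49 for Nr1d1 and -0.29 to 0.13 for Nr1d2. Apart from the array left out, the cause of these changes was not tested.

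The replicate numbers used here recur in both groups, whereas the sample titles number the samples consecutively across the groups and give no pairing. The deviations of same-numbered arrays correlated at 0.19, 0.068, 0.017 and 0.13, and not every array correlated best with its own number. As a replicate block these numbers gave 1 call over all probes, 2078 probes at an unadjusted p under 0.05, and 1 clock probe among these.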

Other observations

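Genes that respond to hormones, food and stress were measured beside the clock genes, because these inputs can set the phase of the liver clock. At the adjusted p under 0.25 used above, limma called 0 of them. Of 13 probes of glucocorticoid targets, 2 were higher in AAV-Cre at an unadjusted p under 0.05 and 0 lower. Both had every AAV-Cre value above the AAV-GFP values, as 3.12% of all probes had. The AAV-Cre mean was higher in 7 of the 13, with a median difference of 0.068. Nfkbia, an inhibitor of NF-kappaB, was at 11.06, 10.71, 11.02 and 11.26 in AAV-Cre replicates 1 to 4, against 10.41, 10.24, 10.57 and 10.67 in AAV-GFP replicates 1 to 4 (0.54 ± 0.16, limma adjusted p = 0.518), while its second probe gave -0.35 ± 0.47. Tsc22d3 was at 10.58, 10.16, 10.20 and 11.75 in AAV-Cre replicates 1 to 4, against 9.85, 9.25, 9.84 and 9.84 in AAV-GFP replicates 1 to 4 on 1 of its 3 probes (0.98 ± 0.35, limma adjusted p = 0.518). On its other probes, of which 1 was brighter, the groups overlapped, with differences of 0.20 ± 0.26 and 0.54 ± 0.46. The metallothionein gene Mt1 differed by -0.37 ± 0.26, and by -0.092 ± 0.15 without AAV-Cre replicate 1, which was at 14.83 where the other 7 arrays were at 15.73 to 16.09. The difference of the Tsc22d3 probe given first was 0.62 without AAV-Cre replicate 4.

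Of 9 probes of fasting genes, 0 were higher and 1 was lower at that p, a probe of Pck1, the gluconeogenic carboxykinase gene (-0.95 ± 0.38), beside -0.57 ± 0.29 for Igfbp1 and 0.28 ± 0.24 for Angptl4, which were -0.28 ± 0.20 and 0.037 ± 0.15 without AAV-GFP replicate 1. Of 8 probes of lipogenic genes, 0 were higher and 2 were lower, those of Fasn, which was detected in 0 AAV-Cre arrays and in 2 AAV-GFP arrays, where AAV-GFP was at least 1.23-fold higher, and of Scd1 (-0.44 ± 0.17). Pnpla3 was likewise detected only in AAV-GFP replicates 1 and 4, at 7.40 and 8.11, the 2 arrays with high Xist. Fasn was at 7.19 and 7.13 in these 2 arrays, against 6.05 and 5.79 in AAV-GFP replicates 2 and 3. Of 11 probes of heat shock genes, 0 were higher and 1 was lower, that of Hsp90aa1, at 9.001, 8.97, 7.10 and 7.62 in AAV-Cre replicates 1 to 4, against 9.59, 9.04, 9.22 and 9.56 in AAV-GFP replicates 1 to 4 (-1.18 ± 0.42, limma adjusted p = 0.518; -0.37 ± 0.21 without AAV-Cre replicates 3 and 4). Of the same list, 1 of the 3 Hspa8 probes differed by -0.77 ± 0.37 and the Hspa5 probe by -0.60 ± 0.39, and neither passed. Of 7 probes of immediate early genes 0 passed, with -0.94 ± 0.43 for Ier2, -1.45 ± 0.76 for Egr1 and -0.67 ± 0.62 for Fos, of which the Egr1 and Fos values were -0.70 ± 0.51 and -0.15 ± 0.52 without AAV-GFP replicate 4. Background shares at this p were 5.21% of all probes higher and 4.28% lower.

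Summed linear levels of the other cell type markers were 5631 to 7590 in AAV-Cre and 3482 to 8382 in AAV-GFP for 7 of 8 endothelial genes, 5960 to 6887 in AAV-Cre and 3625 to 7976 in AAV-GFP for 4 of 8 stellate cell genes, 293 to 827 in AAV-Cre and 157 to 430 in AAV-GFP for 1 of 7 lymphocyte genes, and 100 to 164 in AAV-Cre and 96.5 to 113 in AAV-GFP for 2 of 5 neutrophil genes. Erythroid markers, 2 of 4 measured, were at 9044 to 12355 in AAV-Cre, against 3132 and 1236 in AAV-GFP replicates 1 and 4 and 12081 and 12136 in AAV-GFP replicates 2 and 3.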
